A study of Homo sapiens with 6 samples.

Results

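The genes described here encode the hypoxia-inducible factors (HIFs), the proteins that sense oxygen and restrain them, the glycolytic enzymes, and genes widely used as readouts of HIF activity. They were taken from the deposited gene table by matching symbols to a fixed list of names, with no threshold on a measured value. The names were chosen with earlier results of these data known. Of 53 names, 52 had a row among the 61806 genes of the table, and INSIG2P1 had no row of that symbol. RNA was sequenced from U87-MG, an established human glioblastoma cell line, in 3 libraries of the negative control (NC), whose genotype the labels give as wildtype, and in 3 libraries labelled GRIK1 siRNA, whose genotype the labels give as GRIK1 knockdown. GRIK1 encodes a subunit of kainate-type glutamate receptors, and the study asked what changes in glioma cells when it is depleted. All libraries were of this 1 cell line. The sample titles and the methods name siRNA, while the design text of the series names shRNA. The latter are called siRNA-labelled libraries below. The labels do not say whether they are repeats with 1 siRNA or received different siRNA sequences. The study describes several siRNA sequences against GRIK1 and the choice of the most efficient for its later work, while the titles number these libraries in the same way as those sequences. Nothing says that the libraries came from separate cultures, so that p-values measure the spread between these libraries, which may be technical.

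HIFs are pairs of an oxygen-regulated alpha subunit, HIF1A or EPAS1, and the stable partner ARNT. When oxygen is present, prolyl hydroxylases of the EGLN family mark the alpha subunit, VHL recognizes the mark and the subunit is degraded, while HIF1AN blocks its activating domain by a further hydroxylation. When oxygen is scarce the alpha subunit persists, and the pair binds DNA at hypoxia response elements near genes of glucose uptake, glycolysis, acid export and blood vessel growth. Glioblastoma is known for hypoxic regions and for strong glycolysis. HIF1A is controlled mainly as a protein, which RNA sequencing does not measure.

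A form of the short DNA word at the centre of a hypoxia response element, ACGTG, was searched on both strands. The search ran from 250 bases before to 50 bases after each annotated start in the RefSeq promoter table (GRCh38.p14). Another form, GCGTG, was not searched, so a window without ACGTG may still hold it. Below, the word means ACGTG. A window was found for 42 of the member symbols, and 23 of these symbols (54.8%) held the word in at least 1 window, against 24.9% of all symbols in the table. Per window the shares were 35.5% of 76 member windows and 21.4% of all 35116 windows of the same length. Members were listed in part as known HIF targets, so these shares describe the list and do not test it. The E-box CACGTG, which contains the word on both strands, was present for 10 member symbols and for 8.77% of all symbols. Stretches of 30 bases, with 1 site a gene, are shown for the members given in every library that hold the word, 5′ to 3′ on the strand of the gene, with the word or its reverse complement CACGT in capitals, or the whole E-box where the stretch has one. The position is a letter match and not a measured binding site.
CA9 (chr9:35673898-35673927, plus strand): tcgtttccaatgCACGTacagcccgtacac
GPI (chr19:34364818-34364847, plus strand): acactgcctgtaACGTGgaaggtgttcgat
HK2 (chr2:74835010-74835039, plus strand): tccggcgagagCACGTGgagagaatcgtgg
LDHA (chr11:18394478-18394507, plus strand): cgtgggttcccgCACGTccgccggcccccc
PDK1 (chr2:172556070-172556099, plus strand): cgcCACGTccctCACGTaccactcggcaga
PDK2 (chr17:50095211-50095240, plus strand): ccgggggaagcCACGTGccggggcggaagg
PFKFB3 (chr10:6202813-6202842, plus strand): accctcctcccCACGTGgaagggggctggg
PFKM (chr12:48105347-48105376, plus strand): agatccagagatCACGTtagggtacaccaa
SLC16A3 (chr17:82228975-82229004, plus strand): cgtgcgcgggggACGTGccgcgccagcgac
In CA9, a carbonic anhydrase often used to stain hypoxic tumour tissue, the first base of the word lay 18 bases before the start. In PDK1, which holds the word 2 times in the stretch shown, the nearer copy lay 8 bases before it. SLC2A1 and PFKFB4, which are described below, had windows without ACGTG on either strand. No window was found for SLC2A3, STC1, VEGFA and NDRG1, also described below, so the word was not searched in them.

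The libraries held between 11099909 and 14006968 counted reads. NC library 3 stood apart. Its log2 expression over all tested genes correlated with NC libraries 1 and 2 at 0.964 and 0.968, while NC libraries 1 and 2 correlated at 0.990 and the siRNA-labelled libraries among themselves at 0.989 to 0.992. Ribosomal protein genes took 9.37% of its counts against 4.79% to 5.5% in the other 5 libraries. Results are therefore given with all libraries and without NC library 3, a choice of emphasis made after the data were seen. For GRIK1 itself the NC libraries held 18, 9 and 8 counts, and the siRNA-labelled libraries 15, 20 and 20. The log2(FPKM + 1) value was 0.12 higher in the latter (exact permutation test of both sides, p = 0.4, the smallest p of this design being 0.1). The targeted gene was not measurably lower under its own label. With 8 to 20 counts a library and a smallest p of 0.1, the test could not show a fall. The study reports an efficient knockdown of GRIK1 in U87-MG cells with its siRNA. U87-MG was labelled as glioma, and the libraries had VIM at 825 to 1076 FPKM and CD44 at 50.8 to 71.6 FPKM, while the astroglial genes GFAP, SOX2 and S100B stayed at or under 0.28 FPKM. The 10 glioma and mesenchymal markers summed to 959 to 1288 FPKM in NC and to 1488 to 1529 FPKM in the siRNA-labelled libraries, with no overlap. SPARC, a matrix protein of that list, was at 80.3 to 135 FPKM in NC and 418 to 429 FPKM in the siRNA-labelled libraries, and it rose by 1.80 ± 0.19 on the log2 scale (edgeR adjusted p = 0.0191). Of the 6 tested genes of the list, only SPARC had an adjusted p under 0.05 with all libraries. VIM, CD44, FABP7, OLIG2 and CHI3L1 changed by -0.02, -0.19, -0.22, 0.09 and 0.02. Without NC library 3 CD44 was lower, at -0.28 (edgeR adjusted p = 0.000205). FPKM are counts scaled to the exon length of the gene and to the library total. Of the other marker lists, the summed level of 6 immune genes was 2.33 to 3.53 FPKM in NC and 3.81 to 4.21 FPKM in the siRNA-labelled libraries, almost all of it CD68, with AIF1, CD3E and MS4A1 at 0. Endothelial genes summed to 1.63 to 2.41 and 1.69 to 2.21 FPKM, epithelial genes to 1.64 to 2.4 and 1.87 to 2.52 FPKM with KRT14 at 0, neuronal genes to 3.53 to 6.57 and 5.86 to 6.15 FPKM, and oligodendrocyte genes to 6.84 to 7.85 and 6.11 to 6.55 FPKM with MOG and MAG at 0. Their part in the results was not tested.

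The hypoxia and glycolysis genes did not share 1 direction. The glucose transporter SLC2A3 and the bifunctional enzyme PFKFB4 rose in the siRNA-labelled libraries, and the phosphofructokinase PFKM and the secreted glycoprotein STC1 fell. These were the 4 of 48 tested members (8.33%) with an adjusted p under 0.05 in the quasi-likelihood test of edgeR with Benjamini-Hochberg adjustment over all genes, beside 3.08% of the 15870 genes tested. In bulk RNA, fewer cells of a kind and less RNA per cell cannot be told apart. PFKFB4 alone also changed by more than 1 on the log2 scale, which is 2.08% of members beside 1.41% of all genes. All 4 calls were lost when any 1 of the other 5 libraries was left out in place of NC library 3, with 0 genes called in the whole table by edgeR. With all libraries, median-of-ratios scaling called the same 4 members, beside 486 of 15870 genes. A filter at a mean of at least 1 FPKM also called these 4, beside 533 of 13030 genes. Other tools and filters gave other calls with all libraries. DESeq2 called 11 members (beside 11.8% of the genes to which it gave an adjusted p), adding SLC2A1, GPI, NDRG1 and KDM3A among the higher and VHL, HIF1AN and MXI1 among the lower. With no filter on low values edgeR called 7 members (beside 4.12% of 34080 genes), adding SLC2A1, CA9 and LDHB. In limma NDRG1, SLC2A3 and PFKFB4 were called on log2(FPKM + 1) (beside 2.56% of genes), and NDRG1 and SLC2A3 on log2(FPKM + 0.1) (beside 1.76%). Below, a gene is said to be called where edgeR with the filter gave an adjusted p under 0.05, unless another tool is named. In the 5 fits that left out another library and the fit with the replicate number as a block, 13 to 17 members and 2241 to 4434 genes still had an unadjusted p under 0.05.

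Without NC library 3 the spread within groups was much smaller, with a common dispersion of 0.00298 in place of 0.0391, and many more genes were called. Of the 48 members, 32 (66.7%) passed, beside 35.2% of all genes. Members were chosen with earlier results of these data known, so shares set beside all genes describe the list and do not test it. The higher members numbered 13 (27.1%, all genes 16.9%) and the lower members 19 (39.6%, all genes 18.3%). Members are abundant transcripts, with a median level of 36.3 FPKM against 3.86 FPKM over all tested genes, and were also compared with genes of high level. At a mean level of 10 FPKM or more, 26 of 36 members (72.2%) were called without NC library 3 beside 53.8% of all such genes, and 3 of 36 (8.33%) with all libraries beside 3.15%. The sizes were modest, with a median absolute log2 fold change of 0.25 for members and 0.26 for all genes without NC library 3. The median signed change was -0.08 for members and 0.01 for all genes in that fit, and -0.07 and -0.02 with all libraries.

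In 23 of 48 members (47.9%) every siRNA-labelled library lay on 1 side of all NC libraries, 10 higher and 13 lower, beside 38.4% of all tested genes. NC library 3 differed from the mean of NC libraries 1 and 2 by more than 0.5 on the log2 scale in 20 members (41.7%, 9 above and 11 below) and in 53.5% of all genes. The members together took 2.75%, 2.73% and 2.32% of all counts in NC and 2.78%, 2.68% and 2.68% in the siRNA-labelled libraries. Apart from NC library 3 the summed share was nearly level, while single members differed in both directions.

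**Figure D1:**
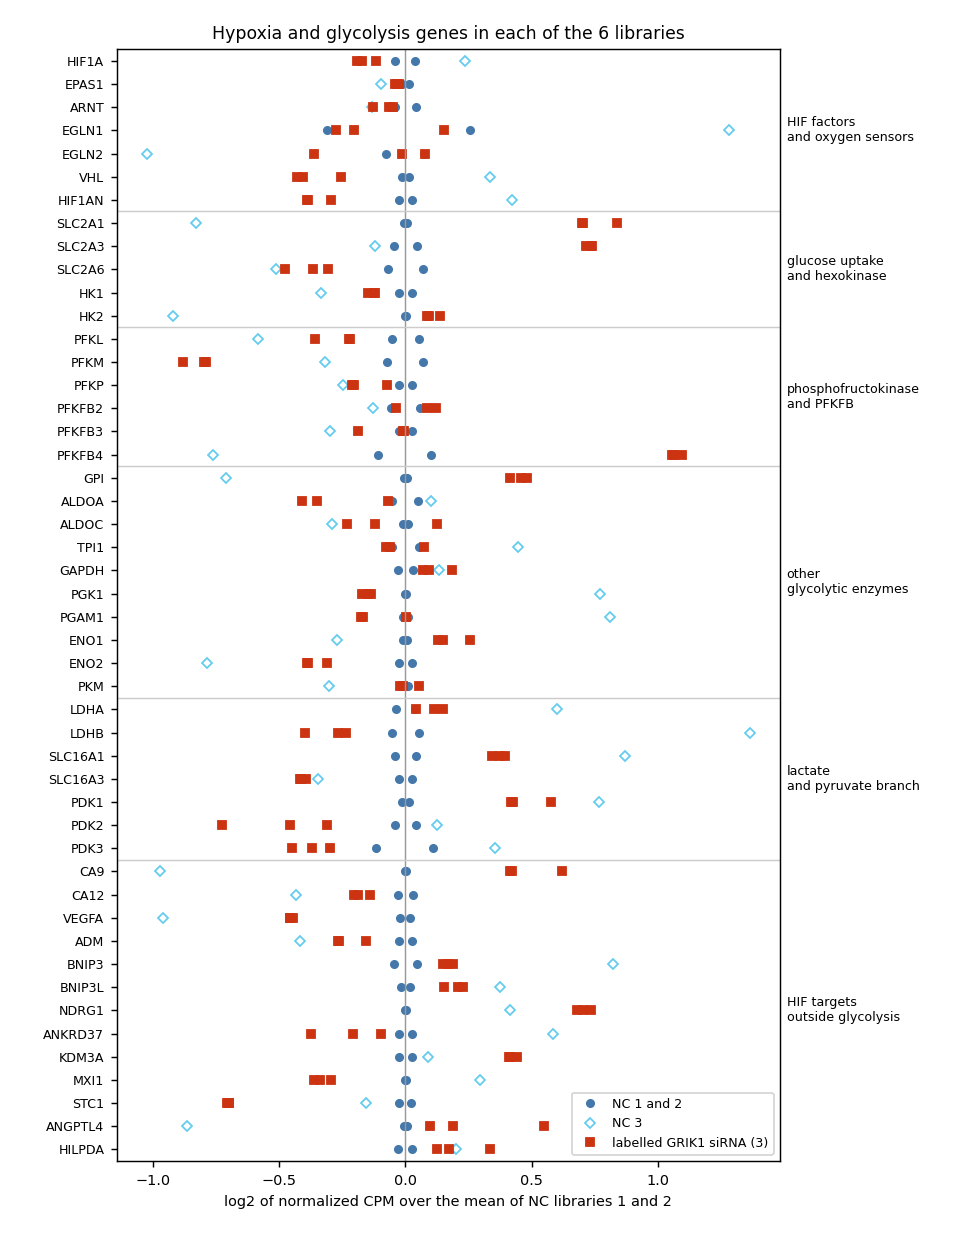
Level of each tested member in each of the 6 libraries, as the log2 difference from the mean of NC libraries 1 and 2 in normalized CPM, with members ordered by role. NC library 3 departs from the other NC libraries in both directions, by more than 0.5 in 20 of 48 members, while the 3 siRNA-labelled libraries resemble each other.

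Among the HIF subunits and their oxygen sensors no gene was called by edgeR with all libraries, where DESeq2 called VHL and HIF1AN. In edgeR 2 of 7 had an unadjusted p under 0.05, beside 3987 of all 15870 genes. In the fit without NC library 3, 3 of 7 tested genes, HIF1A, VHL and HIF1AN, were called lower, beside 18.3% of all genes. Levels per library are given as CPM, counts scaled to a common library size with the trimmed mean of M-values. HIF1A had 305, 322 and 370.0 CPM in NC and 275, 289 and 278 CPM in the siRNA-labelled libraries. The groups did not overlap, but the difference was small, at -0.24 ± 0.13 on the log2 scale (SE, adjusted p = 0.266) and -0.16 ± 0.05 without NC library 3 (adjusted p = 0.0139). EPAS1, the other alpha subunit, stood at 399, 391 and 369.8 CPM in NC and at 388, 386 and 384 CPM in the siRNA-labelled libraries. Its groups overlapped, with a change of -0.0024 ± 0.11 (adjusted p = 0.992) and of -0.03 ± 0.04 without NC library 3 (adjusted p = 0.628). Per length of exon the alpha subunits were at near levels in the NC libraries, at 62.4 ± 2.01 FPKM for HIF1A and 51.7 ± 5.61 FPKM for EPAS1 (SD, n = 3). ARNT, the shared partner, was at 7.6 to 9.66 FPKM in all libraries.

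Of the genes whose products restrain HIF, VHL and HIF1AN were called lower without NC library 3 and the prolyl hydroxylases were not called. VHL, which recognizes the hydroxylated alpha subunit, had a log2 change of -0.48 ± 0.14 (adjusted p = 0.0967) and of -0.36 ± 0.06 without NC library 3 (adjusted p = 0.000194). HIF1AN changed by -0.51 ± 0.15 (adjusted p = 0.1) and -0.36 ± 0.06 (adjusted p = 0.000211). Both had groups that did not overlap, and NC library 3 was the highest library for each. Of the prolyl hydroxylases, EGLN1 ranged from 8.48 to 25.6 CPM in NC and from 8.7 to 11.7 CPM in the siRNA-labelled libraries, with its highest value in NC library 3. EGLN3, a hydroxylase that HIF itself induces, was not tested, with 1, 5 and 0 counts in NC and 0, 1 and 1 in the siRNA-labelled libraries. A count of 0 allows up to 3 counts, so a difference in EGLN3 was not detectable at this depth. Reads of HIF1AN may be shared with NDUFB8, which overlaps it on the opposite strand, since the strand setting of the counting is not given in the sources used here.

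Glucose enters cells through facilitative transporters and is trapped by hexokinase, and of the transporters SLC2A3 was called by edgeR in both fits and SLC2A1 in the fit without NC library 3, and with all libraries by DESeq2 and by edgeR with no filter. SLC2A3, the high-affinity glucose transporter GLUT3, which lies on chromosome 12 (7919230 to 7936187, minus strand), had 158, 168 and 149.7 CPM in NC and 271, 267 and 272 CPM in the siRNA-labelled libraries. It rose 1.71-fold, by 0.77 ± 0.11 on the log2 scale (adjusted p = 0.0293), and by 0.73 ± 0.05 without NC library 3 (adjusted p = 3.52e-09). For SLC2A3, NC library 3 lay near the other NC libraries, and the groups were far apart. SLC2A1, which encodes GLUT1, the transporter that HIF raises in many cells, had 180.3, 182 and 102 CPM in NC and 324, 294 and 295 CPM in the siRNA-labelled libraries. The groups were well separated, at 0.98 ± 0.23 (adjusted p = 0.0633), and without NC library 3 the difference was 0.75 ± 0.05 (adjusted p = 8.8e-09).

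The hexokinases moved less. HK2, the inducible hexokinase of tumours, had 372, 372 and 196 CPM in NC and 397, 409 and 394 CPM in the siRNA-labelled libraries. NC library 3 was its lowest library, and the log2 difference was 0.35 ± 0.24 with it (adjusted p = 0.386) and 0.11 ± 0.05 without it (adjusted p = 0.081). HK1, the constitutive form, changed by -0.03 ± 0.13 with all libraries (adjusted p = 0.91) and by -0.13 ± 0.04 without NC library 3 (adjusted p = 0.0294). SLC2A6, a transporter of the lysosomal membrane, was at 1.21 to 2.07 FPKM and was called in neither fit.

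**Figure D2:**
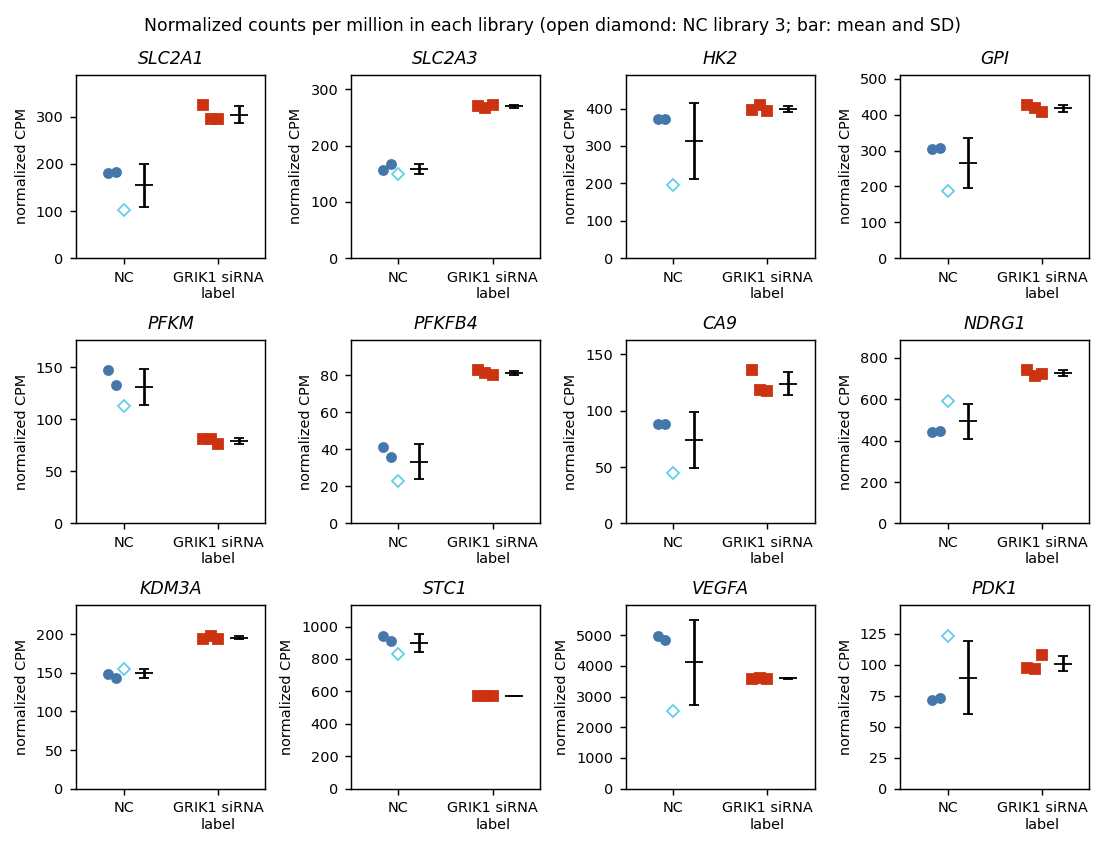
Normalized CPM of members described in the text in each library, NC and labelled GRIK1 siRNA, each point 1 library and each horizontal bar a group mean with its SD (n = 3). SLC2A3 and PFKFB4 lie higher and PFKM and STC1 lower in every siRNA-labelled library, and NC library 3 is the low point of SLC2A1, CA9 and VEGFA.

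The committed step of glycolysis is catalysed by phosphofructokinase, whose subunits are encoded by PFKM, PFKL and PFKP, and is set by a sugar bisphosphate that PFKFB enzymes make and break down. PFKFB4, located on chromosome 3 (48517684 to 48562015, minus strand), had 41.5, 35.9 and 22.8 CPM in NC and 82.7, 81 and 80.4 CPM in the siRNA-labelled libraries. It had the largest change of all tested members with all libraries, 2.44-fold or 1.29 ± 0.21 on the log2 scale (adjusted p = 0.0341), and 2.11-fold or 1.07 ± 0.07 without NC library 3 (adjusted p = 6.36e-09). PFKFB3, the relative with the strongest kinase activity and a usual HIF target, had 96.6, 93.4 and 77.1 CPM in NC and 83.4, 94.3 and 94.5 CPM in the siRNA-labelled libraries. The groups overlapped, and the log2 change was 0.03 ± 0.13 (adjusted p = 0.912) and -0.06 ± 0.06 without NC library 3 (adjusted p = 0.475). PFKFB2 was called in neither fit, and PFKFB1 had at most 2 counts in any library. PFKFB4 overlaps UCN2 on the same strand, whose summed count was 727 beside 4359 for PFKFB4.

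PFKM, which encodes the muscle-type subunit, moved the other way. The gene lies on chromosome 12 (48105139 to 48146404, plus strand). PFKM had 147, 133 and 112 CPM in NC and 80.9, 80.5 and 76 CPM in the siRNA-labelled libraries. It fell by 0.72 ± 0.13 on the log2 scale (adjusted p = 0.0391), to 0.605 of its NC level, and the log2 change was -0.82 ± 0.06 without NC library 3 (adjusted p = 1.24e-08). NC library 3 was its lowest NC library, nearest to the siRNA-labelled libraries. The change of the other subunits was smaller, at -0.10 for PFKL (adjusted p = 0.755) and -0.08 for PFKP (adjusted p = 0.7), and both were lower without NC library 3, by -0.26 ± 0.06 (adjusted p = 0.00166) and -0.16 ± 0.05 (adjusted p = 0.0201). PFKM overlaps SENP1 on the opposite strand, with a summed count of 1682 for SENP1 and 7668 for PFKM.

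**Figure D3:**
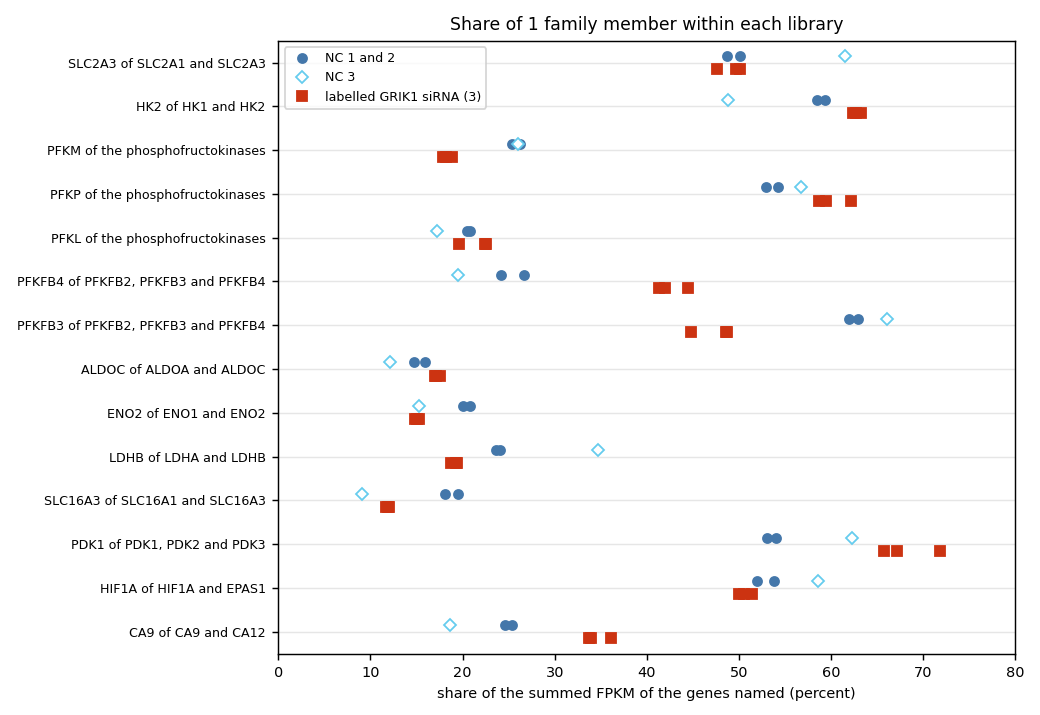
Share of each isozyme within its family, in percent of the family's summed FPKM, for each library. PFKFB4 took 19.5% to 26.6% in NC and 41.4% to 44.5% in the siRNA-labelled libraries, and PFKM took 25.3% to 26.3% and 17.9% to 18.9%.

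Shares within a family compare isozymes per length inside 1 library. They were chosen after the values were seen and are given as a description, with no test. PFKFB4 made up 23.5 ± 3.61% of the summed FPKM of PFKFB2, PFKFB3 and PFKFB4 in NC and 42.6 ± 1.65% in the siRNA-labelled libraries (SD, n = 3). The share of PFKFB3 was 63.7 ± 2.12% and 47.4 ± 2.25%, with no overlap between groups. PFKM made up 25.9 ± 0.494% of the phosphofructokinases in NC, NC library 3 included at 26.0%, and 18.3 ± 0.485% in the siRNA-labelled libraries. The share of PFKM was nearly the same in the 3 NC libraries, although its CPM was not. The share of SLC2A3 within SLC2A1 and SLC2A3 overlapped between groups, at 48.8% to 61.6% and 47.6% to 50.1%.

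The remaining glycolytic enzymes include some of the most abundant transcripts of the cell, and with all libraries none of the 10 was called by edgeR, while DESeq2 called GPI. In edgeR 1 of the 10 had an unadjusted p under 0.05, beside 3987 of all 15870 genes. GPI, which converts glucose phosphate to fructose phosphate, had 304, 307 and 186 CPM in NC and 427, 419 and 407 CPM in the siRNA-labelled libraries. The groups did not overlap, at 0.65 ± 0.20 (adjusted p = 0.113), and without NC library 3 the difference was 0.45 ± 0.05 (adjusted p = 9.8e-07). ENO1 changed by 0.27 with all libraries (adjusted p = 0.304) and was called without NC library 3, at 0.18 ± 0.05 (adjusted p = 0.00667). ENO2, ALDOA and PGK1 were at -0.14, -0.30 and -0.46 with all libraries, and they were called lower without NC library 3, at -0.36, -0.27 and -0.15. GAPDH, PKM, TPI1, PGAM1 and ALDOC were called in neither fit, with log2 changes between -0.11 and 0.12 without NC library 3. GAPDH, the most abundant member at 1661 to 1990 FPKM, took 0.398% to 0.477% of all counts. GAPDH, BNIP3 and PGAM1 have 62, 39 and 13 pseudogenes named after them in the table, and counts of these genes are uncertain where reads match more than 1 copy. The same limit holds for all 16 members with a named pseudogene, among them LDHA with 6 and SLC2A3 with 3.

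Pyruvate leaves glycolysis as lactate or enters the mitochondrion, a branch set by lactate dehydrogenase, the monocarboxylate transporters and the pyruvate dehydrogenase kinases. None of the 7 tested genes of this branch was called by edgeR with all libraries or by DESeq2, while edgeR with no filter called LDHB. Of the 7, 3 had an unadjusted p under 0.05 in edgeR with all libraries, beside 3987 of all 15870 genes. Once NC library 3 was left out, 6 were called, 2 higher and 4 lower, beside 16.9% and 18.3% of all genes. LDHA, the form that favours lactate, had 1559, 1641 and 2426 CPM in NC and 1649, 1732 and 1774 CPM in the siRNA-labelled libraries. NC library 3 was the highest of all libraries, and the log2 change was -0.13 ± 0.20 (adjusted p = 0.713) with it and 0.10 ± 0.05 (adjusted p = 0.105) without it. LDHB had a mean of 378 ± 226 CPM in NC and of 201 ± 11.6 CPM in the siRNA-labelled libraries (SD, n = 3), the large NC spread coming with 638 CPM in NC library 3. LDHB changed by -0.91 ± 0.37, to 0.533 of its NC level, with all libraries (adjusted p = 0.18) and by -0.30 ± 0.05, to 0.814, without NC library 3 (adjusted p = 0.000319).

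PDK1, which inhibits pyruvate dehydrogenase and is a usual HIF target, had 71.8, 73.2 and 123 CPM in NC and 97.5, 96.8 and 108 CPM in the siRNA-labelled libraries. NC library 3 lay above every siRNA-labelled library, and the change was 0.17 ± 0.22 (adjusted p = 0.644) with it and 0.48 ± 0.06 (adjusted p = 1.56e-05) without it. PDK2 had 11.2, 10.5 and 11.8 CPM in NC and 8.75, 7.91 and 6.56 CPM in the siRNA-labelled libraries. Its groups did not overlap, at -0.53 ± 0.17 (adjusted p = 0.117) and -0.49 ± 0.15 without NC library 3 (adjusted p = 0.0189). PDK3 was lower by a like amount, at -0.50 ± 0.15 (adjusted p = 0.105) and -0.37 ± 0.09 without NC library 3 (adjusted p = 0.00414), while PDK4 had 11 to 24 counts and was not tested. PDK2 overlaps SAMD14 on the opposite strand, with a summed count of 252 for SAMD14 and 696 for PDK2. PDK1 had the opposite sign to PDK2 and PDK3 in both fits, but with all libraries its change of 0.17 was smaller than its standard error. Of the summed FPKM of PDK1, PDK2 and PDK3, PDK1 took 56.5 ± 5.04% in NC and 68.3 ± 3.22% in the siRNA-labelled libraries (SD, n = 3). The mean share in NC libraries 1 and 2 was 53.6%.

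The monocarboxylate transporters carry lactate across the plasma membrane. SLC16A3, the exporter of glycolytic cells, had 96.5, 93 and 74.6 CPM in NC and 72, 70.9 and 71 CPM in the siRNA-labelled libraries. The groups did not overlap by a narrow margin, and the change was -0.30 ± 0.13 (adjusted p = 0.202) with all libraries and -0.41 ± 0.06 (adjusted p = 2.68e-05) without NC library 3. SLC16A1 had the opposite sign, at 0.02 (adjusted p = 0.968) with all libraries and 0.37 ± 0.05 (adjusted p = 1.01e-05) without NC library 3. SLC16A3 overlaps CSNK1D on the opposite strand, and CSNK1D had the larger summed count, 9597 beside 5871, so the level of SLC16A3 is uncertain.

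Of the HIF targets outside glycolysis, STC1 was called by edgeR with all libraries. STC1, a secreted glycoprotein hormone, had 944, 914 and 834 CPM in NC and 573, 569 and 573 CPM in the siRNA-labelled libraries. STC1 fell by 0.65 ± 0.13 on the log2 scale (adjusted p = 0.0434), to 0.637 of its NC level, and the log2 change was -0.70 ± 0.05 without NC library 3 (adjusted p = 4.3e-09). The siRNA-labelled libraries lay close together, at 572 ± 1.9 CPM (SD, n = 3), and below every NC library.

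Of the usual HIF readouts, NDRG1, CA9 and KDM3A were called higher by edgeR without NC library 3. With all libraries edgeR with the filter called none of these 3, while DESeq2 called NDRG1 and KDM3A, limma NDRG1 and edgeR with no filter CA9. NDRG1, a stress-responsive gene, had 443, 444 and 591 CPM in NC and 738, 711 and 723 CPM in the siRNA-labelled libraries. Its groups did not overlap, at 0.56 ± 0.16 (adjusted p = 0.0953) and 0.71 ± 0.05 without NC library 3 (adjusted p = 5.66e-09). CA9 had 88.4, 88.2 and 45 CPM in NC and 136, 118 and 118 CPM in the siRNA-labelled libraries. Its change was 0.75 ± 0.25 (adjusted p = 0.133) and 0.49 ± 0.07 (adjusted p = 1.65e-05) without NC library 3, and it lay higher in each siRNA-labelled library. KDM3A, a histone demethylase, had 149, 143 and 155 CPM in NC and 194, 198 and 194 CPM in the siRNA-labelled libraries. NC library 3 fell in with the others for this gene, and the change was 0.39 ± 0.11 (adjusted p = 0.0904) and 0.42 ± 0.05 (adjusted p = 2.71e-06).

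VEGFA, the growth factor of blood vessels, did not follow these genes. It had 4988, 4851 and 2523 CPM in NC and 3583, 3607 and 3586 CPM in the siRNA-labelled libraries. NC library 3 lay below every siRNA-labelled library and NC libraries 1 and 2 above, and the change was -0.20 ± 0.26 (adjusted p = 0.658) with all libraries and -0.45 ± 0.04 (adjusted p = 1.94e-07) without NC library 3. ANGPTL4, BNIP3 and BNIP3L were also called higher without NC library 3, and CA12, ADM and MXI1 lower. Of the 13 tested genes of this role, 6 were called higher and 5 lower in that fit, beside 16.9% and 18.3% of all genes. BNIP3, a mitophagy receptor, turned direction, at -0.16 ± 0.24 with all libraries (adjusted p = 0.689) and 0.17 ± 0.05 without NC library 3 (adjusted p = 0.0097). HILPDA and ANKRD37 were called in neither fit, and P4HA3 was not tested, with 1 to 11 counts.

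**Figure D4:**
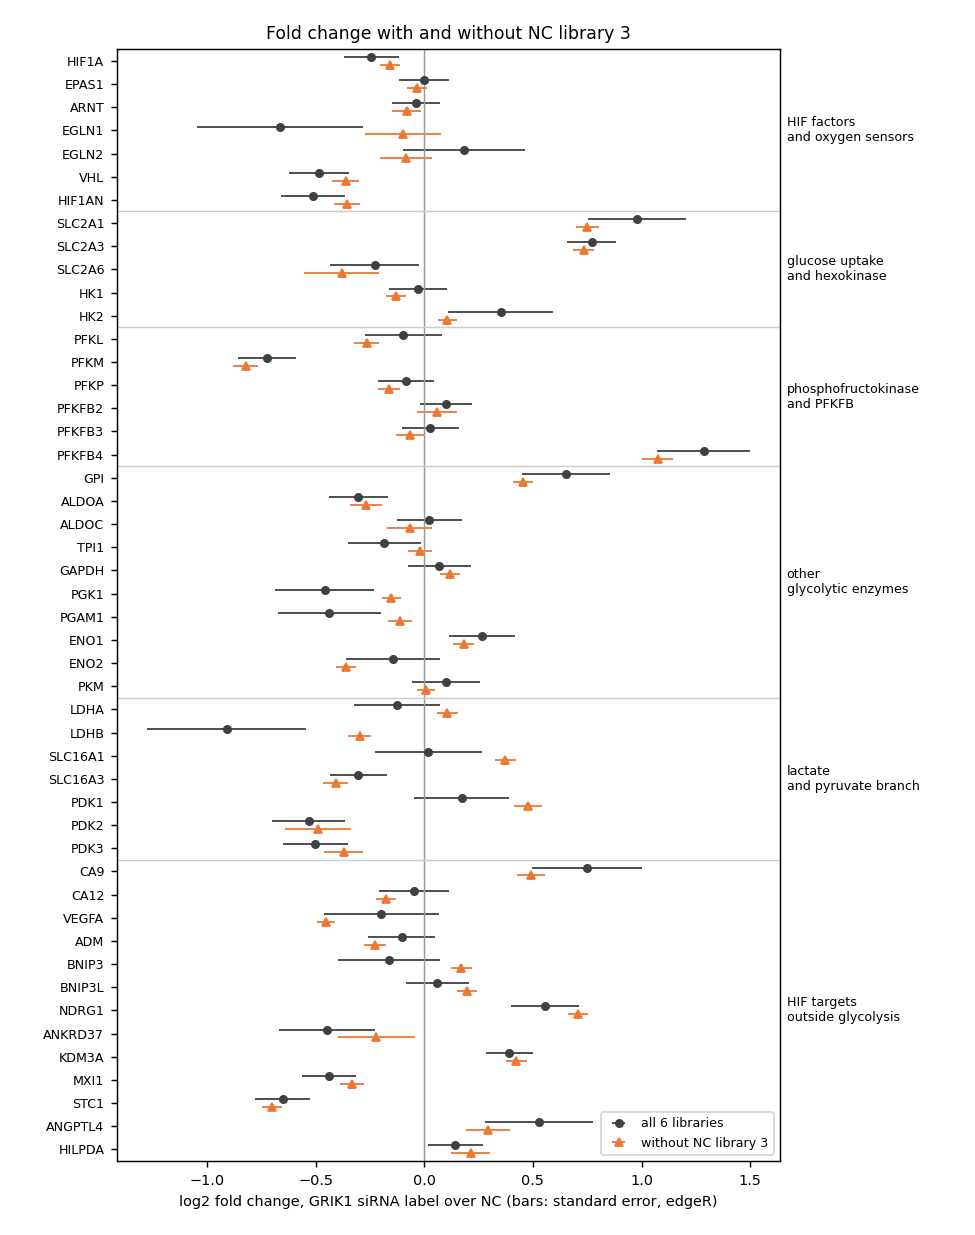
Log2 fold change of each tested member, siRNA-labelled libraries against NC, with its standard error, from the fit of all libraries and from the fit without NC library 3. PFKFB4 has the highest value in both fits, LDHB the lowest in the first and PFKM the lowest in the second.

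Members were also counted by the ACGTG word, as a description with no test. Of 23 tested members with the word, 5 were called higher and 9 lower without NC library 3, with a median log2 change of -0.08, beside 16.9% higher and 18.3% lower of all genes. Of 16 tested members without it, 4 were called higher and 7 lower, with a median of -0.12. Members without a window are in neither count. GCGTG was not searched, so members without ACGTG may hold that form.

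Other genes of the HIF pathway were read from a list of 30, of which 27 were tested. With all libraries JMJD6, a hydroxylase of the oxygenase family, and IGFBP3, which binds insulin-like growth factors, rose and none fell, 7.41% of the list beside 3.08% of all genes. JMJD6 had 35.6, 32.5 and 34.3 CPM in NC and 53, 51.4 and 50.5 CPM in the siRNA-labelled libraries, a log2 change of 0.60 ± 0.11 (adjusted p = 0.0391) and of 0.60 ± 0.08 without NC library 3 (adjusted p = 1.26e-05). IGFBP3 changed by 0.67 ± 0.13 (adjusted p = 0.0449) and by 0.59 ± 0.05 without NC library 3. Without NC library 3, 16 were higher and 3 lower, 70.4% beside 35.2%. PLOD2, a lysyl hydroxylase of collagen, had the third lowest adjusted p among the higher genes, at 0.54 ± 0.12 (adjusted p = 0.0609), while BHLHE41, a transcriptional repressor, and CITED2, which competes with HIF for its coactivator, had the lowest among the lower genes, at -1.03 ± 0.23 (adjusted p = 0.0606) and -0.55 ± 0.13 (adjusted p = 0.0651). ARNT2, the neural relative of ARNT, followed at -0.15 ± 0.13 (adjusted p = 0.496). Without NC library 3 the changes were 0.57 for PLOD2, -1.26 for BHLHE41, -0.45 for CITED2 and -0.05 for ARNT2, and all but ARNT2 were called.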

How the data were processed

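The authors deposited, for every gene, whole-number counts of reads and FPKM, which equal the count divided by exonic size and by the library total (100% of values within rounding). The submitters' processing notes name cutadapt 1.9.1, HISAT2, HTSeq and GRCh38, without roles. The strand setting is not given in the sources used here. Coordinates are those of the table. Groups were taken from the labels.

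From the counts, edgeR 4.0.16 in R 4.3.3 (TMM scaling, quasi-likelihood test, Benjamini-Hochberg adjustment over all genes) compared the groups. The SE of a log2 change was derived as its absolute value divided by the square root of the F statistic of that test. A mean level of 0.5 FPKM or more was required, which left 15870 genes and 48 members, with EGLN3, PFKFB1, PDK4 and P4HA3 below the limit. Alternatives were DESeq2 1.42.0, median-of-ratios scaling, other filters, the replicate number as a block, limma 3.58.1 on log2(FPKM + 1) or log2(FPKM + 0.1), and leaving out each library. Same-numbered libraries of the groups correlated at -0.07, 0.04 and -0.04 in their deviations, so the numbers were not taken to pair them. GRIK1 was compared by an exact permutation test. Scripts were tested on simulated data. No 2 libraries agreed within counting noise (the lowest mean chi-square per gene was 2.22). Limits for a count of 0 cover counting error only.

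Members and gene lists were chosen with earlier results of these data known. Values in every library are given for members with an adjusted p under 0.05, for those past that limit without NC library 3 with a log2 change beyond 0.4 in size, and for HIF1A, EPAS1, SLC2A1, HK2, PFKFB3, PFKFB4, LDHA, PDK1, CA9, VEGFA, NDRG1 and EGLN3, and of the other lists the 3 genes with the lowest adjusted p in each direction are named, except 1 gene that is not reported here. Promoter sequences are from RefSeq.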

Additional observations from a re-analysis of the deposited data

How the results depend on the processing

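Depth limited EGLN3, PFKFB1, PDK4 and P4HA3, which had too few reads to test. The number of calls depended strongly on the processing. DESeq2 called 1684 genes (499 with a log2 fold over 1), 11 members (6 higher, 5 lower), 8 other HIF pathway genes and 3 other glucose metabolism genes. With no filter on low values the counts were 1403 genes (664), 7 members (4 higher), 6 and 2 of the lists, and a mean of at least 1 FPKM gave 2 other glucose metabolism genes. With the replicate number as a block, 0 genes, 0 members and 0 genes of either list were called by edgeR, with 3323 genes and 16 members at an unadjusted p under 0.05; the correlation of same-numbered libraries does not show a pairing, and 1 of 3 NC libraries matched its own number best. In limma on log2(FPKM + 1), 113 genes passed both limits, 0 members were lower and 0 other glucose metabolism genes were called, and on log2(FPKM + 0.1), 280 genes (125) and 2 members were called, none lower and none with a log2 fold over 1, and 0 other glucose metabolism genes. The members' median was 0.027 and 0.032 in these limma fits. Without NC library 3, DESeq2 called 4210 genes (377), 30 members (14 higher, 16 lower), 17 and 8 of the lists, and median-of-ratios scaling 5594 genes (497), 33 members (14 higher, 19 lower), 19 and 12; both combinations were chosen after seeing the data. Leaving out each library gave 0 to 5591 genes (0 to 491), 0 to 32 members (0 to 13 higher, 0 to 19 lower, 0 to 1 over a log2 fold of 1), 0 to 19 other HIF pathway genes, 0 to 12 other glucose metabolism genes and a members' median of -0.082 to -0.019, the highest count in each case without NC library 3. The cause was not tested.

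Of 270 alternatives for 18 members, 189 kept direction and side of the threshold, 37 newly passed, 29 no longer passed and 15 turned direction, all in EPAS1, LDHA and PFKFB3, none of which was called. Over all 48 tested members, 5 turned direction without NC library 3 (EGLN2, PFKFB3, ALDOC, LDHA and BNIP3), of which BNIP3 was then called. EPAS1 was 0.0009 with median-of-ratios scaling and in DESeq2, 0.021 with at least 1 FPKM, 0.084 and 0.086 in limma, and -0.032 to 0.023 with 1 library left out. In the DESeq2 and median-of-ratios fits without NC library 3, LDHA was 0.11 and 0.11 and PFKFB3 -0.0624 and -0.0622. With 1 library left out, LDHA lay between -0.24 and 0.10 and PFKFB3 between -0.064 and 0.092. GRIK1 was 0.47 higher on log2(FPKM + 0.1) and 0.06 to 0.21 higher with 1 library left out.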

Other observations

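Genes of glucose metabolism beyond the members (32 in the list, 24 tested) included 1 gene called lower and 0 called higher with all libraries in edgeR, 4.17% of the list beside 3.08% of all genes. Of the 24, 8 had an unadjusted p under 0.05 in edgeR, beside 3987 of all 15870 genes. DESeq2 called 3, beside 11.8% of the genes to which it gave an adjusted p.

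Without NC library 3, 3 of these genes were higher and 9 lower (50% of the list, beside 35.2% of all genes). SLC2A13, a transporter of myo-inositol, had a change of -0.78 ± 0.16 (adjusted p = 0.0503) with all libraries, and DLAT, a subunit of pyruvate dehydrogenase, one of -0.58 ± 0.13 (adjusted p = 0.0594). Both had groups that did not overlap. MPC1, a subunit of the mitochondrial pyruvate carrier, changed by 0.36 ± 0.14 (adjusted p = 0.167), HKDC1, a hexokinase relative, by 0.30 ± 0.18 (adjusted p = 0.333), and PDP1, a phosphatase that activates pyruvate dehydrogenase, by 0.15 ± 0.11 (adjusted p = 0.403). None of these 3 was called by edgeR with all libraries. Without NC library 3, MPC1 (0.42, adjusted p = 0.00794) and PDP1 (0.19, adjusted p = 0.00895) were called higher and HKDC1 was not (0.13, adjusted p = 0.337), while SLC2A13 (-0.61, adjusted p = 9.71e-05) and DLAT (-0.54, adjusted p = 0.00119) were called lower.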
